A study of Mus musculus with 12 samples.

Results

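The clustered replication-dependent histone genes were examined in 8 lists of ChIP-seq peaks from adipose tissue of mice. The family comprised 67 of the 22380 protein-coding genes of the mm9 annotation, and its members were selected on their symbol, which starts with Hist1h, Hist2h, Hist3h or Hist4h. The symbol uses no measured value, but the family was chosen by its promoter peaks in these same lists, so those peak counts are given as a description and carry no test. By type there were 6 linker histone H1 genes, 19 H2A genes, 18 H2B genes, 11 H3 genes and 13 H4 genes. Of these, 55 belonged to the cluster Hist1 on chromosome 13, 9 to Hist2 on chromosome 3, 2 to Hist3 on chromosome 11 and 1 to Hist4 on chromosome 6.

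Wild-type C57BL/6J mice were given a high-fat diet (HFD) or stayed on standard chow (SCD) from 6 weeks of age, and brown adipose tissue (BAT) and subcutaneous white adipose tissue (WAT) were collected after 12 weeks. Antibodies to H3K9me2 and H3K9me3, histone H3 carrying 2 or 3 methyl groups on lysine 9, were used on chromatin crosslinked with 1% formaldehyde for 8 min. Each diet, tissue and mark was represented by 1 library, so the 8 lists have no replicates, and the sex and the number of animals behind a library are not given in the sources used here. Whole tissue was used, and the lists hold no gene expression by which cell types could be checked. The methods pair each mark with an antibody described as raised against the other methylation state, so each mark carries the name of its library label, and which methylation state a list holds cannot be told apart. Peaks scoring 50 or more, the threshold used throughout, numbered 8350 to 52758 per list. In SCD and HFD BAT there were 24887 and 43173 for H3K9me2 and 26835 and 52758 for H3K9me3. In SCD and HFD WAT there were 21746 and 21976 for H3K9me2 and 8350 and 29190 for H3K9me3. The score came from the authors' peak caller, is taken to be -log10 of the p-value multiplied by 10, ranks peaks within a list and is not scaled between libraries.

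Replication-dependent histone genes supply the core histones (H2A, H2B, H3 and H4) and the linker histone H1 that package newly copied DNA, and they are switched on together in S phase of the cell cycle. They are short, lack introns as a rule, lie in dense clusters of near-identical copies, and their messenger RNAs end in a conserved stem-loop rather than a poly(A) tail. Many H2A and H2B genes lie head to head and share the DNA between their starts as a common promoter. H3K9me2 and H3K9me3 are best known from repressed chromatin and heterochromatin, and mature adipocytes seldom divide.

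The members lay close together. In Hist1, 23 genes had their starts within 327 kb (chr13:21808012-22135083), 31 within 403 kb (chr13:23622919-24026331), and Hist1h2al, an H2A gene, lay alone at position 51298434. The 9 Hist2 genes spanned 49.8 kb (chr3:96023839-96073644). Of the 67 members, 52 had the start of another member within 3 kb, the distance that defined a promoter here, and 1 peak was counted for up to 5 members. There were 12 divergent pairs of an H2A and an H2B gene, whose starts were 168 to 306 bp apart. Hence the members are not independent observations. For 8 members, among them Hist1h2bl, Hist1h2bn and Hist1h2aa of these pairs, the annotated gene is the coding sequence alone. Their distances and upstream bases are therefore counted from the start codon.

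Shared promoters of 3 such pairs are printed because they cover the range of the results, followed by the 250 bases upstream of the only members with no peak in any list, the H4 genes Hist1h4f and Hist1h4d. Hist1h2bl-Hist1h2ai (chr13:21808013-21808280, plus strand) was counted with a promoter peak in 7 lists. In SCD BAT and HFD WAT H3K9me2, the highest of these peaks lay over the H3 gene Hist1h3h, outside the printed bases. Hist1h2bf-Hist1h2ad (chr13:23666066-23666249, plus strand) belongs to the only member with a peak in all 8 lists, although its SCD WAT H3K9me3 peak lay at another pair. Hist1h2ak-Hist1h2bn (chr13:21845777-21845991, plus strand) belongs to 2 of the genes counted for the highest-scoring peak found in 1 diet only. That peak (chr13:21845142-21845796) lay mostly over Hist1h2ak and reached only the first of the printed bases. Hist1h4f (chr13:23643518-23643767, minus strand) and Hist1h4d (chr13:23673217-23673466, plus strand) follow. Capitals mark matches on either strand to the CCAAT box (CCAAT or ATTGG), the TATA box (TATAAA or TTTATA) and the octamer of H2B promoters (ATTTGCAT or ATGCAAAT), which do not overlap here. The bases printed for Hist1h2bl and Hist1h2bn run up to their start codons. The genome was NCBIM37, the assembly of mm9.
Hist1h2bl-Hist1h2ai: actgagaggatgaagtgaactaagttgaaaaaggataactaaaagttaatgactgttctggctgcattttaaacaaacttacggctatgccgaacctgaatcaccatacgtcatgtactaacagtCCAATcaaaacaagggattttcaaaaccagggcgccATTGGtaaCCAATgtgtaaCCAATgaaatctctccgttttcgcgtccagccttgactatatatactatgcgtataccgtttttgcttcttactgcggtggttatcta
Hist1h2bf-Hist1h2ad: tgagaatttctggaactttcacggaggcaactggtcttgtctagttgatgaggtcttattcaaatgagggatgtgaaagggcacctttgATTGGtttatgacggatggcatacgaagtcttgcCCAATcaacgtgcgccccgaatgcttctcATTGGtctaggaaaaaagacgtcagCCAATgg
Hist1h2ak-Hist1h2bn: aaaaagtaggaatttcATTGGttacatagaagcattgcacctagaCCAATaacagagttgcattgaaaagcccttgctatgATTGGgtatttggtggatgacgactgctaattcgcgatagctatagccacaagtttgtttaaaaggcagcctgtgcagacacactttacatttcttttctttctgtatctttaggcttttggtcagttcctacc
Hist1h4f: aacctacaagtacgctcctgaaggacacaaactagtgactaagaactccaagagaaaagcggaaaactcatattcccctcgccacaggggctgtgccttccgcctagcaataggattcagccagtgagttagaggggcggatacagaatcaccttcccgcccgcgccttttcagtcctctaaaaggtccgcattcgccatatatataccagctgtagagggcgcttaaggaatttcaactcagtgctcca
Hist1h4d: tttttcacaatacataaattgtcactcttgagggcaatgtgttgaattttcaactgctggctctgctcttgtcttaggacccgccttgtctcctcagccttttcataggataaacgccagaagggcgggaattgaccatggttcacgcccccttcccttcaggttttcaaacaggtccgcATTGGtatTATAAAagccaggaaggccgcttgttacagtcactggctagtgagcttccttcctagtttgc

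The pairs held 4, 4 and 3 CCAAT boxes, Hist1h4d held 1 CCAAT box and 1 TATA box, and Hist1h4f held no match. In the 250 bases upstream of the start, 85.1% of the members had a CCAAT box, against 35.0% of all protein-coding genes. Each of the H1, H2A and H2B genes had one, as did 90.9% of the H3 genes and 30.8% of the H4 genes. A TATA box was present in 49.3% of the members and 12.3% of all genes. The octamer, the site of the factor Oct-1, was present in 44.4% of the H2B genes, 36.8% of the H2A genes and no H1, H3 or H4 gene, against 1.62% of all genes. The median GC content of these upstream bases was 44.4% for the members and 54.0% for all genes. A match of letters is a description and does not show that a factor binds.

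Most members had a peak within 3 kb of a start in BAT, except for H3K9me2 in HFD. In SCD BAT, 52 of 67 members (77.6%) had a promoter peak of H3K9me2, against 43.3% of all protein-coding genes, and 63 (94.0%) had one of H3K9me3, against 52.3%. In HFD BAT, H3K9me2 peaks were at 31 members (46.3%), close to the 45.6% of all genes, whereas H3K9me3 peaks were at 62 members (92.5%), against 58.9%. In WAT, H3K9me2 peaks were at 43 members (64.2%) in either diet, against 42.3% of all genes in SCD and 39.3% in HFD. H3K9me3 peaks in WAT were at 7 members (10.4%) in SCD, where 6.96% of all genes had one, and at 30 members (44.8%) in HFD, where 35.9% had one. Thus the member share was above the share of all genes in all 8 lists, by little in HFD BAT H3K9me2.

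**Figure D1:**
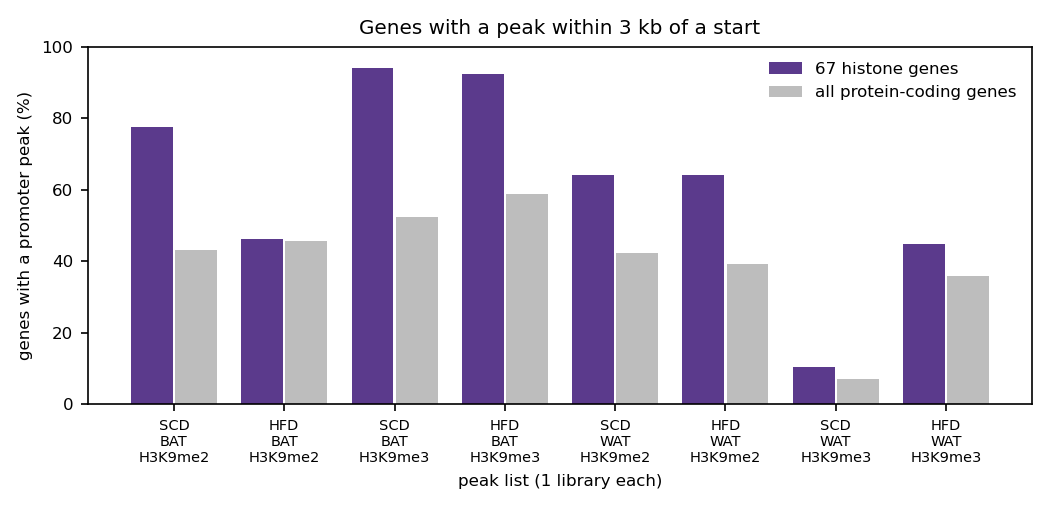
Share of genes with a peak of score 50 or more within 3 kb of a start (y axis, percent) in each of the 8 lists (x axis; 1 library each, so no error bars), for the 67 histone genes and for all protein-coding genes. The histone genes reach 94.0% and 92.5% in the H3K9me3 lists of BAT and 46.3% in HFD BAT H3K9me2, next to 45.6% of all genes.

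These peaks were not among the strongest of their lists. They numbered 28 and 18 distinct peaks in SCD and HFD BAT H3K9me2, 44 and 48 in BAT H3K9me3, 24 and 23 in H3K9me2 of WAT, and 3 and 16 in its H3K9me3. Their median score percentile among all promoter peaks of the same list was 27.9 to 48.2, except in SCD WAT H3K9me3, where it was 8.76. Their median width was 425 to 798 bp, narrower in every list than promoter peaks of all genes, whose medians were 730 to 1151 bp. When each list was reduced to its 8350 highest-scoring peaks, the member share was below that of all genes in 5 of the 8 lists, among them both H3K9me3 lists of BAT, with 10 members (14.9%) in SCD against 23.1% of all genes and 3 members (4.48%) in HFD against 24.1%. At a score of at least 80 it was below that of all genes in 3 of the 8 lists, which were SCD and HFD WAT H3K9me2 and SCD WAT H3K9me3.

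**Figure D2:**
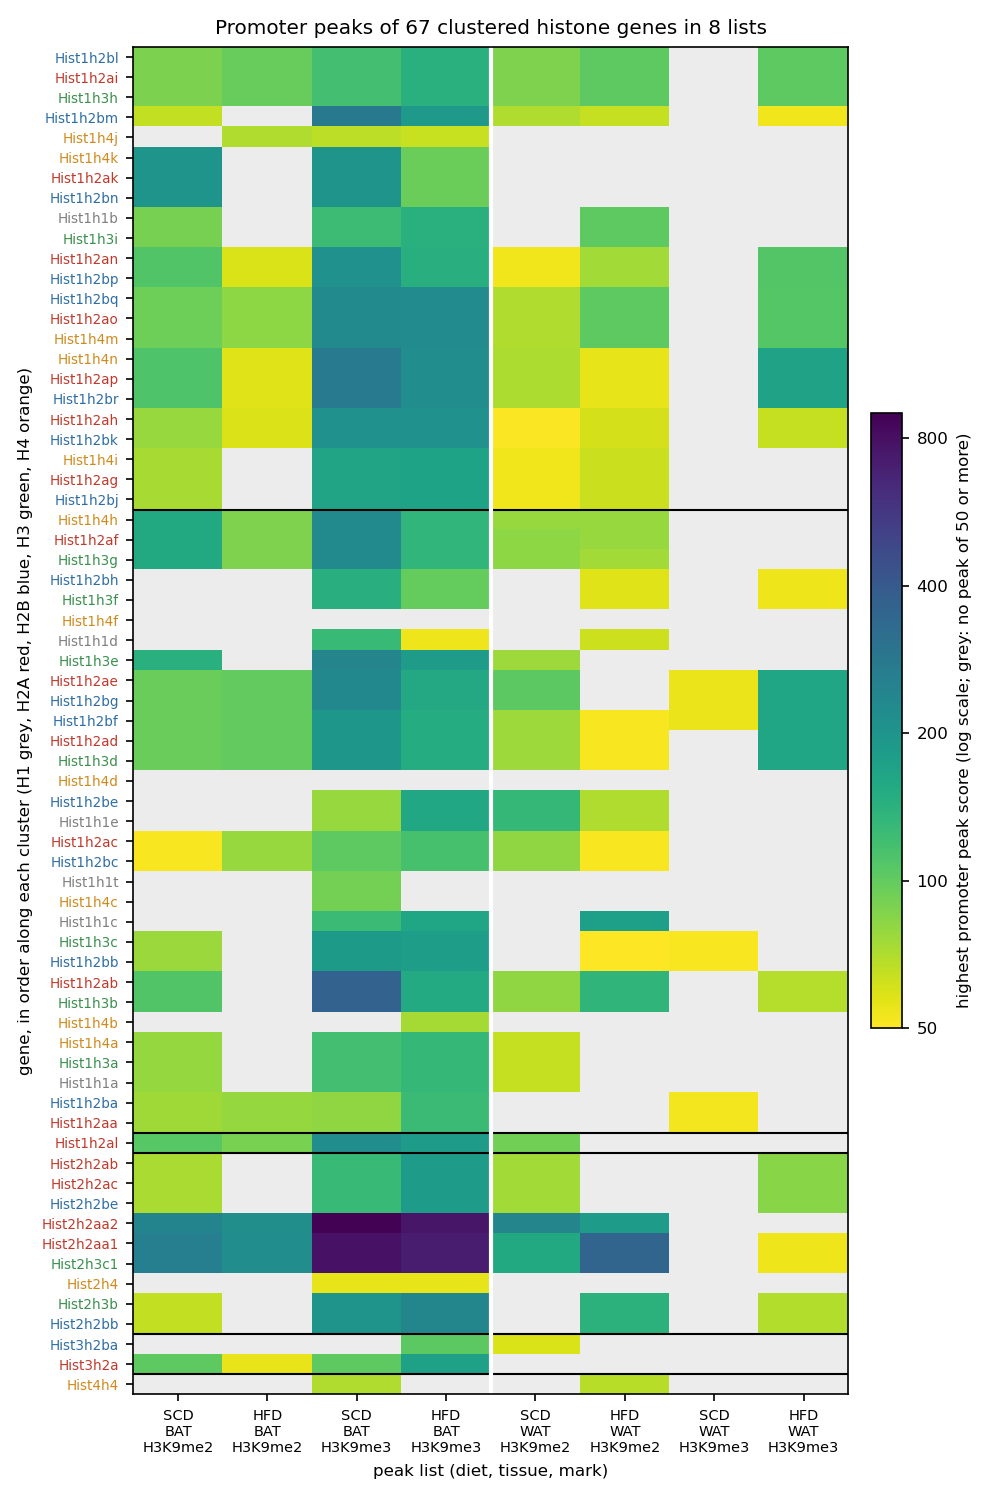
Score of the highest promoter peak (colour, log scale; grey marks no peak of 50 or more) of each of the 67 members (rows, in order along the clusters, separated by black lines at the blocks of Hist1, Hist2, Hist3 and Hist4) in the 8 lists (columns). The darkest cell is Hist2h2aa2 at 887 in SCD BAT H3K9me3, followed by Hist2h2aa1 and Hist2h3c1 at 779 in the same list. Hist1h4f and Hist1h4d are grey throughout.

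Over the members, a promoter peak was present in a median of 5 of the 8 lists, against 3 for all genes. Hist1h2bf, an H2B gene, was the only member with a peak in all 8, with scores in SCD and HFD of 97.3 and 99.8 for BAT H3K9me2, 195 and 150 for BAT H3K9me3, 76.6 and 51.6 for H3K9me2 of WAT, and 54.6 and 164 for its H3K9me3. The peak at 54.6, near the threshold, lay over Hist1h2ae of another pair. Its centre was 3294 bp from the start of Hist1h2bf, so it touched only the edge of that promoter window. A further 19 members had a peak in 7 lists and, as in the colour map of scores, most of these lay in the first stretch of Hist1. In addition to the 2 H4 genes with none, Hist1h1t, Hist1h4c and Hist1h4b had a peak in 1 list only. Of all protein-coding genes, 3.72% had a peak in all 8 lists, 14.3% in 7, 7.56% in 1 and 31.8% in none.

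Fewer members had a peak directly over a start than had one anywhere in the promoter window. A peak lay directly over an annotated start of 31 members in SCD BAT H3K9me2 (37.2% of all genes) and of 20 in HFD (33.5%), and of 43 members in SCD BAT H3K9me3 (46.8%) and of 40 in HFD (50.3%). The corresponding counts in WAT were 19 members for SCD H3K9me2 (35.9% of all genes), 14 for HFD H3K9me2 (31.0%), 1 for SCD H3K9me3 (4.22%) and 17 for HFD H3K9me3 (26.4%). In 5 lists the member share with a covered start was below that of all genes, unlike the share with any promoter peak. These were HFD BAT H3K9me2 at 29.9% and the WAT lists at 28.4%, 20.9%, 1.49% and 25.4%. The call took any annotated start, of which the 22380 genes had 70064. At the first start alone, members were above all genes in HFD BAT H3K9me2 (29.9% against 26.6%) and HFD WAT H3K9me3 (23.9% against 21.5%). They stayed below in SCD WAT H3K9me2 (28.4% against 31.1%), HFD WAT H3K9me2 (20.9% against 25.7%) and SCD WAT H3K9me3 (1.49% against 3.32%). In both BAT H3K9me3 lists, the member profile was highest at 70.1%, reached alike at 100, 200 and 300 bp downstream of the first start. For all genes the profile was highest 200 bp downstream, at 42.9% in SCD and 45.8% in HFD.

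**Figure D3:**
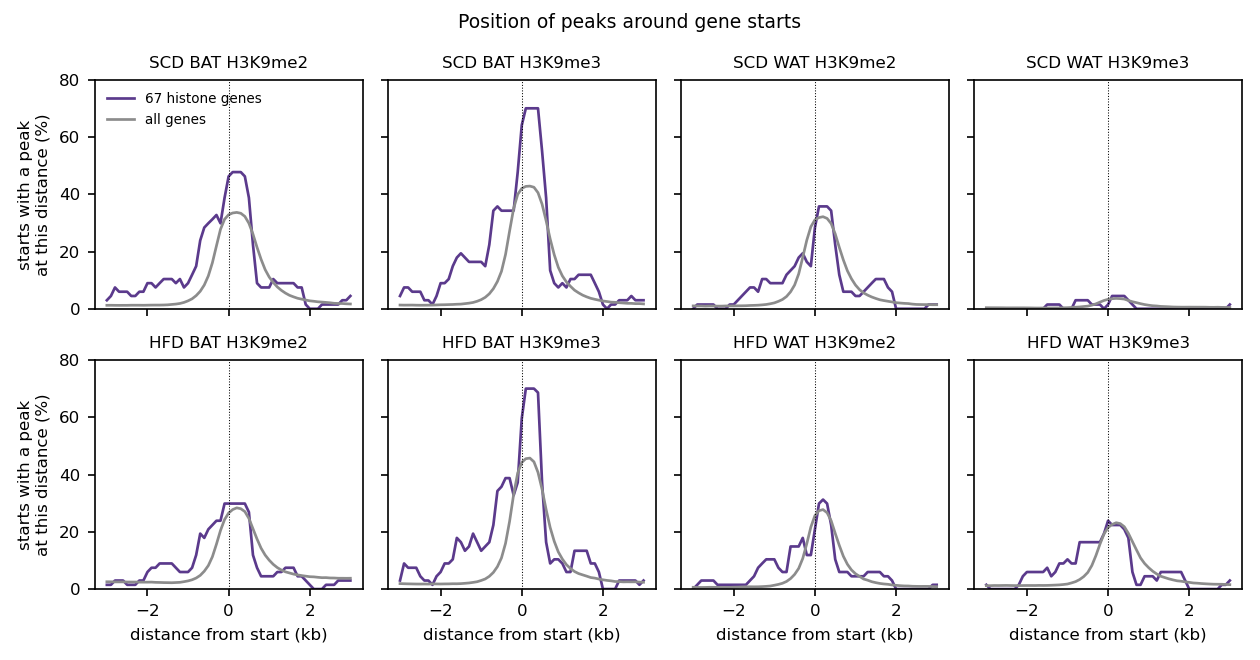
Share of first starts that have a peak at each distance (y axis, percent; x axis, kb from the start, negative upstream), for the 67 histone genes and all protein-coding genes in each of the 8 lists. The histone genes reach 70.1% from 100 to 300 bp downstream in both BAT H3K9me3 lists and also show shoulders upstream in both. In HFD BAT H3K9me2 they reach no more than 29.9%, next to 28.4% of all genes.

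Histone types differed from each other. In SCD BAT H3K9me2, all 19 H2A genes had a promoter peak, as did 10 of 11 H3 genes and 15 of 18 H2B genes, but only 6 of 13 H4 genes and 2 of 6 H1 genes. In HFD BAT H3K9me2, H2A genes again had the most and H1 genes the fewest, with 14 of the H2A, 9 of the H2B, 4 of the H3 and 4 of the H4 genes and none of the H1 genes. In BAT H3K9me3, every H2A and H3 gene had a peak in both diets, and the share was lowest for the H4 genes, 76.9% in SCD and 69.2% in HFD, whereas 6 and 5 of the 6 H1 genes had one. In HFD WAT H3K9me3, the counts were 11 H2A, 11 H2B, 6 H3 and 2 H4 genes and no H1 gene. H2B genes thus had the highest share there, as in SCD WAT H3K9me3, with 4 of 18 against 2 of 19 H2A genes. In HFD WAT H3K9me2, 9 of 11 H3, 13 of 18 H2B and 4 of 6 H1 genes had a peak and 12 of 19 H2A genes did. Per member, the median number of lists with a peak was 6 for H2A, 5.5 for H2B, 5 for H3, 3.5 for H1 and 3 for H4. The neighbouring types share promoter windows, so these counts are not independent of each other.

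**Figure D4:**
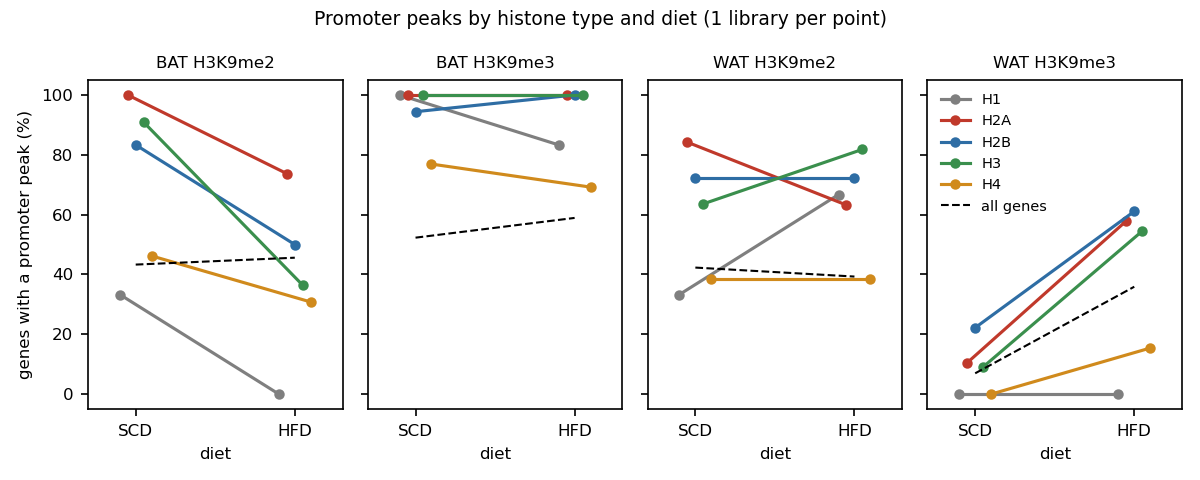
Share of genes of each histone type with a promoter peak (y axis, percent) in SCD and HFD (x axis) for each tissue and mark, 1 library per point, with all protein-coding genes as a dashed line. In BAT H3K9me2 each of the 5 types is lower in HFD, whereas all genes go from 43.3% to 45.6%.

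Within the divergent pairs the highest peaks lay more often toward the H2A gene in 7 of the 8 lists. The highest promoter peak of a pair was centred on the H2A side of the midpoint between both starts in 59 of 74 cases (12 pairs in 8 lists, counted where a peak was present) and on the H2B side in 15. The counts were near even in HFD BAT H3K9me2, with 5 and 4, and were 1 and 2 in SCD WAT H3K9me3. Some sides are weakly set, since the nearest centre was 4 bp from the midpoint. Others rested on peaks at other genes. H2B-side centres 3009 to 3386 bp away lay at another pair, and H2A-side centres 1560 to 1793 bp away over a neighbouring H3 or H4 gene. A peak reached into the first 400 bp of the H2A gene alone in 39 cases, of the H2B gene alone in 3 and of both in 27. In SCD WAT H3K9me2, peaks covered a mean of 70.7% of these 400 bp in the 12 H2A genes and 0% in the 12 H2B genes, although both genes of a pair count as having a promoter peak. In SCD BAT H3K9me3 the means were 99.4% and 57.4%. Over all members, the centre of the highest peak was at a median of 229 bp downstream of the start for the 112 cases of an H2A gene with a peak, 188 bp downstream for H3 and 101 bp downstream for H1, whereas the medians for H2B and H4 were -437 and -908 bp, which is upstream of their own starts.

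The cover of the first 400 bp moved with the letters of that stretch. Averaged over the 8 lists, peaks covered 64.0% of it in H2A genes, 47.3% in H3, 23.7% in H2B, 22.0% in H4 and 19.6% in H1 genes. The median GC content of the stretch was 65.8% in H2A, 64.8% in H3, 61.5% in H2B, 60.5% in H4 and 59.1% in H1 genes, in the same order. In the 12 pairs, the medians were 65.5% for the H2A and 61.8% for the H2B genes, with 41 and 35.5 CpG dinucleotides, whereas 25.5% and 20.1% of the 50-base words there were unique in the genome. Across the 67 members, the mean cover had a Spearman correlation of 0.775 with GC content, 0.710 with the number of CpG dinucleotides and -0.611 with the share of unique words, given as a description over genes that share libraries, peaks and near-identical sequence. The part of base composition in these peaks was not tested.

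**Figure D5:**
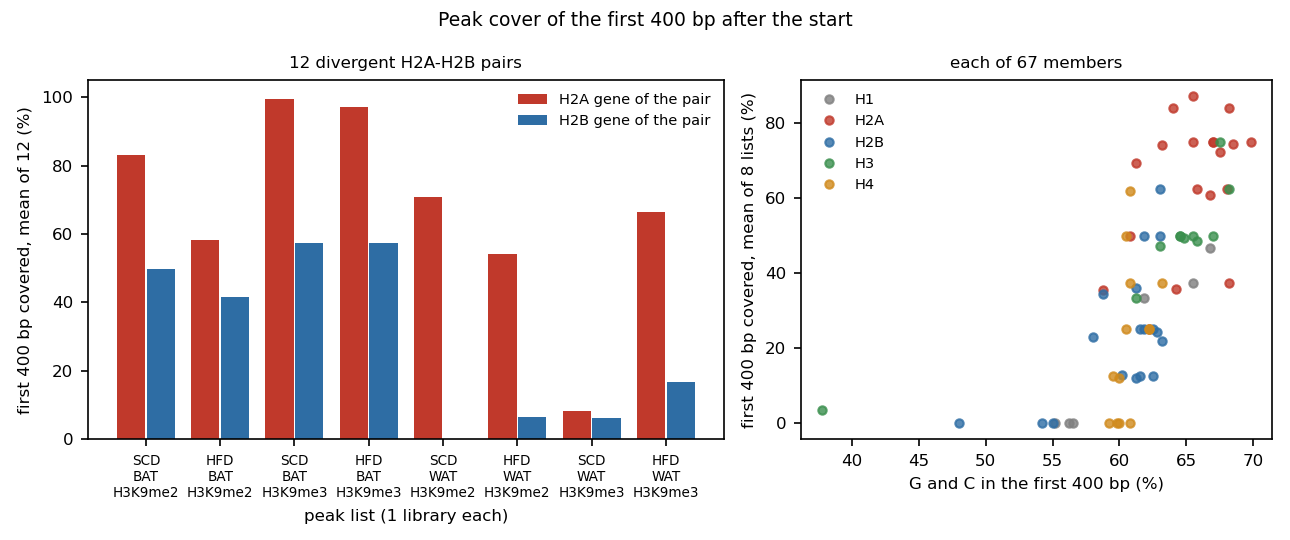
Left, mean share of the first 400 bp after the start covered by peaks (y axis, percent) for the H2A and the H2B genes of the 12 divergent pairs in each list (x axis). Right, GC content of the first 400 bp (x axis, percent) against its cover averaged over the 8 lists (y axis, percent), 1 point for each of the 67 members, coloured by type. The H2A bars are higher in every list, 70.7% against 0% in SCD WAT H3K9me2, and the H2A points lie at the upper right.

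Between the diets, H3K9me2 of BAT was present at fewer members in HFD. There, 30 members had a peak in both diets, 22 in SCD only, 1 in HFD only and 14 in neither. Among all genes, 11.5% had a peak in SCD only and 13.8% in HFD only, so the members were one-sided at this threshold where all genes were not. The 22 members rested on 10 distinct peaks. The highest was at 202 and was counted for the H4 gene Hist1h4k, the H2A gene Hist1h2ak and the H2B gene Hist1h2bn. The printed promoter is that of Hist1h2ak and Hist1h2bn. The centre of the peak was 307 bp downstream of the start of Hist1h2ak, outside the printed bases, and at -3095 bp from the start of Hist1h4k. The same 3 genes had H3K9me3 peaks in BAT at 201 in SCD and 95.3 in HFD and none of 50 or more in WAT. The next members in SCD only were the H3 gene Hist1h3e at 143 and Hist1h2ab and Hist1h3b at 109, and the member in HFD only was the H4 gene Hist1h4j at 70.8. By type, 5 H2A, 6 H2B, 6 H3, 3 H4 and 2 H1 genes were in SCD only. Of the 28 SCD peaks, 39.3% overlapped an HFD peak, and of the 18 HFD peaks, 61.1% overlapped an SCD peak. With the 8350 highest-scoring peaks of each list, 7 members (10.4%) were in SCD only, against 12.0% of all genes, and 0 in HFD only, against 5.73%. Members in HFD only rose to 4 with promoters of 1 kb on either side and to 7 where peaks had to overlap to be shared, with 21 and 28 in SCD only. With promoters of 1 kb, 5.97% of the members were in HFD only and 31.3% in SCD only, against 12.1% of all genes in each. Since each diet was 1 library of unknown depth, diet and library cannot be told apart.

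In H3K9me3 of BAT most members had a peak in both diets, with 60 in both, 3 in SCD only and 2 in HFD only, against 2.16% and 8.83% of all genes. Those in SCD only were Hist1h1t, the testis H1 gene, and Hist1h4c, which shared a peak at 91.4, and Hist4h4 at 70.9. Those in HFD only were Hist3h2ba at 103 and Hist1h4b at 73.6. The overlap of the peaks themselves was 90.9% of the SCD and 85.4% of the HFD peaks. Among the 8350 highest-scoring peaks of each list, however, 10 members had a peak in SCD and 3 in HFD, with 7 in SCD only and 0 in HFD only, the same counts as for H3K9me2. The 7 members were 10.4% of the family. Of all genes, 5.39% were then in SCD only and 6.39% in HFD only.

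In WAT, H3K9me2 was at 43 members in either diet, which were in part different genes. There were 32 members in both diets, 11 in SCD only and 11 in HFD only, against 10.2% and 7.16% of all genes. Those in SCD only were led by Hist1h2ae and Hist1h2bg at 104 and Hist1h2al at 93.0, and those in HFD only by the H1 gene Hist1h1c at 177 and Hist2h3b and Hist2h2bb at 141. The SCD-only members included 4 H2A and no more than 1 H1 gene, and the HFD-only members included no H2A gene and 3 H1 genes. Of these 3, Hist1h1b and Hist1h1d had SCD peaks below the threshold, the latter at 37.9, and the HFD list starts at 50. When peaks had to overlap to count as shared, both counts were 17. The equal totals held at this threshold, with 5 members in SCD and 16 in HFD among the 8350 highest-scoring peaks of each list, and 52 and 43 with no lowest score. These were 7.46% and 23.9% of the members, against 19.9% and 21.9% of all genes, and 77.6% and 64.2%, against 54.7% and 39.3%.

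H3K9me3 in WAT had 3 members in both diets, 4 in SCD only and 27 in HFD only, against 1.68% and 30.6% of all genes, so the direction was that of the whole list. The 27 members rested on 12 peaks, led by the peak at 171 of Hist1h4n, Hist1h2ap and Hist1h2br and the peak at 164 of Hist1h2ad and Hist1h3d. Those in SCD only were Hist1h2ba and Hist1h2aa, the testis H2B and H2A genes, at 52.6, and Hist1h3c and Hist1h2bb at 51.6, all near the lowest score used. The SCD WAT lists alone were deposited down to a score of 30. In them, 15 members had an H3K9me3 peak below 50, the highest that of Hist1h2ac and Hist1h2bc at 48.65, and 9 had such an H3K9me2 peak, the highest that of Hist1h4k at 42.82. Just inside the threshold were Hist1h2bb and Hist1h3c, at 50.05 in HFD WAT H3K9me2 and 51.62 in SCD WAT H3K9me3.

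Between the marks, no member of BAT had H3K9me2 without H3K9me3. In SCD BAT, 52 members had both and 11 had H3K9me3 only, against 2.99% of all genes with H3K9me2 only and 12.0% with H3K9me3 only. In HFD BAT, 31 had both and 31 had H3K9me3 only, against 4.75% and 18.1%. In SCD WAT the direction was opposite, with 40 members in H3K9me2 only and 4 in H3K9me3 only, against 36.5% and 1.12%. HFD WAT lay between, with 25 in both, 18 in H3K9me2 only and 5 in H3K9me3 only, against 13.2% and 9.82%.

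Between the tissues, every member with an H3K9me3 promoter peak in WAT also had one in BAT, though overlap of the peaks themselves was not tested. In SCD, 56 members had an H3K9me3 peak in BAT only and 0 in WAT only, against 46.6% and 1.32% of all genes. In HFD, the counts were 32 and 0, against 25.9% and 2.80%. H3K9me2 was mixed. In SCD, 12 members were in BAT only and 3 in WAT only, against 9.58% and 8.66%, and in HFD 7 were in BAT only and 19 in WAT only, against 16.7% and 10.5%. BAT therefore held more of the members than WAT in SCD and fewer in HFD for H3K9me2.

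The highest scores were in Hist2. Hist2h2aa2, an H2A gene, had scores in SCD and HFD of 244 and 216 for BAT H3K9me2, 887 and 759 for BAT H3K9me3, and 241 and 184 for WAT H3K9me2. The second copy Hist2h2aa1 and the H3 gene Hist2h3c1, whose annotated start lies beside it, shared peaks at 258 and 218, 779 and 720, and 156 and 352 in the same lists, and at 54.1 in HFD WAT H3K9me3. These were the 3 highest members in the 4 H3K9me2 lists and in both BAT H3K9me3 lists. Their peaks were also the widest of the family, reaching 2452 bp. No 50-base word inside Hist2h2aa1 or Hist2h2aa2 was unique in the genome, and 8.12% to 21.8% of the words inside these peaks were. Hist2h2ab, Hist2h2ac and Hist2h2be shared peaks at 72.0 in SCD BAT H3K9me2, 128 and 185 in SCD and HFD BAT H3K9me3, 74.6 in SCD WAT H3K9me2 and 83.8 in HFD WAT H3K9me3. Hist2h3b and Hist2h2bb had 65.0, 202 and 240 in the first 3 of these lists, 141 in HFD WAT H3K9me2 and 69.5 in HFD WAT H3K9me3. The H4 gene Hist2h4 had only H3K9me3 peaks in BAT, at 55.5 in SCD and 55.4 in HFD. Among the 9 genes, H3K9me2 peaks in BAT were thus at 8 in SCD and 3 in HFD, the 3 with the highest scores.

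The small clusters had few peaks. Hist3h2a, an H2A gene, had peaks in the 4 BAT lists alone, at 102 in SCD and 55.1 in HFD for H3K9me2 and 102 and 173 for H3K9me3. Its start is also a start of Trim17, so a peak there cannot be assigned to either gene. Hist3h2ba, an H2B gene, had peaks at 103 in HFD BAT H3K9me3 and 59.2 in SCD WAT H3K9me2. Hist4h4 had peaks at 70.9 in SCD BAT H3K9me3 and 68.5 in HFD WAT H3K9me2. The lone Hist1h2al had peaks in 5 lists, between 89.2 and 218, and none in HFD WAT H3K9me2 or WAT H3K9me3.

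Within Hist1, the first stretch had a higher share of genes with a peak than the second in 7 of the 8 lists. H3K9me2 peaks in BAT were at 22 of its 23 genes (95.7%) in SCD and 14 (60.9%) in HFD, against 20 (64.5%) and 12 (38.7%) of the 31 genes of the second stretch, next to 43.3% and 45.6% of all genes. SCD WAT H3K9me3 went the other way, with 0 of 23 and 7 of 31. The first stretch also holds a duplication, in which Hist1h2bq, Hist1h2ao and Hist1h4m face a copy made of Hist1h4n, Hist1h2ap and Hist1h2br. The promoter windows of these 6 genes shared up to 85.2% of their 50-base words with the other copy. All 6 had a peak in 7 of the 8 lists, although reads that mapped to several sites were removed according to the methods. Without these 6, the counts of members with a peak in SCD and HFD were 46 and 25 of 61 in BAT H3K9me2, 57 and 56 in BAT H3K9me3, 37 and 37 in H3K9me2 of WAT, and 7 and 24 in its H3K9me3. Over all members, a median of 89.8% of the 50-base words in the promoter window and 53.0% of those in the gene itself were unique. The median for gene bodies was 97.3% in H1, 57.0% in H4, 45.5% in H2B, 42.7% in H3 and 33.0% in H2A genes. The median number of lists with a peak was, in the same order, 3.5, 3, 5.5, 5 and 6. How much repeated sequence contributed was not tested.

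H3K9me2 peaks were at 33.3% and 0% of the 6 H1 genes, all in Hist1, in SCD and HFD BAT. The shares of all genes were 43.3% and 45.6%. In WAT they were at 33.3% and 66.7% of the H1 genes, against 42.3% and 39.3% of all genes. In BAT, Hist1h1a at 79.1 and Hist1h1b at 90.2 had a peak in SCD and none of the 6 had one in HFD. In WAT, 2 had a peak in SCD, Hist1h1a at 64.6 and Hist1h1e at 132, and 4 had one in HFD, Hist1h1b at 102, Hist1h1c at 177, Hist1h1d at 62.5 and Hist1h1e at 70.4. With no lowest score the SCD list also held peaks of Hist1h1b and Hist1h1d, so that the count of 2 rests on the threshold. The peaks counted for Hist1h1a and Hist1h1b were centred at -1530 to -2621 bp from their starts and covered neither start. Hist1h1c and Hist1h1e are linker histone genes active in most somatic cells. In BAT H3K9me3, scores in SCD and HFD were 118 and 132 for Hist1h1a, 124 and 144 for Hist1h1b, 125 and 165 for Hist1h1c, 129 and 54.0 for Hist1h1d, and 77.9 and 159 for Hist1h1e, whereas Hist1h1t had 91.4 in SCD and no peak in HFD. No H1 gene had an H3K9me3 peak in WAT.

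The stem-loop that ends histone messenger RNAs was found within 150 bases after the stop codon of 60 of the 67 members, at a median distance of 32 bases. The most common form, in 36 members, is shown because it marks the end of the transcribed unit.
Stem-loop: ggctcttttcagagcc
A peak covered 26 of the 60 stem-loops in SCD BAT H3K9me2, 15 in HFD, 39 in SCD BAT H3K9me3 and 27 in HFD, and 2 to 15 in the WAT lists. Of the 39, 35 also had a covered start, as did 22 of the 27, by the same peak or another.

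Genes between the histone genes had peaks less often than all genes, though only 11 were counted, within the stretches of Hist1, Hist2 and Hist3. Of these 11, 2 (18.2%) and 3 (27.3%) had a promoter peak in SCD and HFD BAT H3K9me2, next to 43.3% and 45.6% of all genes. In BAT H3K9me3, 4 and 4 (36.4% each) had one, next to 52.3% and 58.9%. In H3K9me2 of WAT, 3 (27.3%) and 2 (18.2%) had one, next to 42.3% and 39.3%. In its H3K9me3, 0 and 3 (27.3%) had one, next to 6.96% and 35.9%. The iron regulator Hfe, Trim38 and the phosphate transporter genes Slc17a1, Slc17a2, Slc17a3 and Slc17a4, which lie among histone genes of the second stretch, had none in any list. The same held for 31.8% of all protein-coding genes. These stretches were drawn after the positions were seen. If Hist1 is taken from its first start to Hist1h2al, 241 genes lie within the clusters. Of these, 39.0% had a promoter peak in SCD BAT H3K9me2 and 46.5% in SCD BAT H3K9me3, next to 43.3% and 52.3% of all genes. In HFD BAT the shares were 39.0% and 49.4%, next to 45.6% and 58.9%.

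Other genes of histone supply were described by 3 lists, beside which the share of all genes with a peak in SCD and HFD was 43.3% and 45.6% for BAT H3K9me2, 52.3% and 58.9% for BAT H3K9me3, 42.3% and 39.3% for H3K9me2 of WAT, and 6.96% and 35.9% for its H3K9me3. Of 15 histone genes listed under the name replication-independent, 12 were found in the annotation. In SCD and HFD BAT, 8 (66.7%) and 6 of them had H3K9me2 peaks, and 11 and 11 (91.7%) had H3K9me3 peaks. In SCD and HFD WAT, 9 and 9 had H3K9me2 peaks, and 0 and 9 had H3K9me3 peaks. The highest scores were 789 for H2afx, the DNA damage variant, 751 for the H3.3 gene H3f3a and 687 for the macroH2A gene H2afy. Of the 21 genes of histone transcription and messenger RNA processing, the counts in the same order were 12 (57.1%) and 11 (52.4%), 21 (100%) and 20 (95.2%), 12 (57.1%) and 13 (61.9%), and 0 and 12 (57.1%), led by the cyclin E genes Ccne2 at 929 and Ccne1 at 651 and by the Oct-1 gene Pou2f1 at 743. Of the 17 histone chaperone genes, they were 12 (70.6%) and 9 (52.9%), 14 (82.4%) and 17 (100%), 14 (82.4%) and 10 (58.8%), and 1 (5.88%) and 8 (47.1%), led by Hjurp, the chaperone of the centromeric H3 variant, at 679 in SCD WAT H3K9me3, followed by Ubn1 at 593 and Cabin1 at 590. In BAT H3K9me2, 2, 5 and 5 genes of the 3 lists were in SCD only and 0, 4 and 2 in HFD only. Every gene found had a peak in at least 1 list.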

How the data were processed

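Chromatin of BAT and WAT from SCD-fed and HFD-fed mice was immunoprecipitated for H3K9me2 or H3K9me3, giving 8 libraries with 1 list of peaks each, and 4 inputs, which were not analysed here. According to the submitters' processing notes and the methods, the authors used FastQC, Trim Galore, Bowtie2 2.4.2 with mm9, removal of multi-mapping reads and MACS2, and how the inputs entered is not given in the sources used here. The deposited score of a peak has no stated unit and is taken to be -log10 of the p-value multiplied by 10, from its lowest values of 50 or, in the SCD WAT lists, 30. It is not scaled between libraries, and their depth is unknown, so no interval was given.

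Groups came from the library labels. Peaks with a score of at least 50 were assigned to protein-coding genes of GENCODE vM1 (70064 starts) within 3 kb of any start, as in the methods, on NCBIM37, in which 0 peaks ended past a chromosome. Peaks overlapping by at least 1 bp were called overlapping. Uniqueness is the share of 50-base words found once in the chromosome sequences, and for long genes covers only the part near the start. Motifs were read on both strands of the 250 bases before the first start. With 1 library per group no test was made, and counts stand beside the share of all genes. The members and the gene lists were chosen with earlier results of these data known. Genes were named by a rule: the 3 highest members of each list, up to 3 of each diet, members with a peak in all lists or none, the small clusters, the H1 genes, and the 3 highest of each other list. Other members, such as those of the duplication, the testis genes and those nearest the threshold, were named after their values were seen. The assignment was tested on simulated data and checked against bedtools 2.31.1. Python 3.11.15, NumPy 2.4.6 and matplotlib 3.10.9 were used. Alternatives were the lists without a lowest score, a threshold of 80, as many peaks from each list as from the shortest, promoters of 1 kb on either side, 1 start per gene, overlap of the peaks of both diets, and, added after the data were seen, the family without 6 duplicated genes.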

Additional observations from a re-analysis of the deposited data

Results flagged for a closer look

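The number of members with an H3K9me3 promoter peak differed between the diets by 23 in WAT and hardly at all in BAT. HFD minus SCD was 23 in WAT (7 and 30 members) and -1 in BAT (63 and 62 members, and 58 in each diet at a score of at least 80), so the opposite signs rest on 1 gene. With 1 library per diet and tissue the difference was not tested, and in WAT the same direction was seen in all genes, 6.96% of which had a peak in SCD and 35.9% in HFD.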

How the results depend on the processing

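Of 104 counts recomputed under the alternatives, 75 stayed within 1.5 times the value in the report, including all with 1 start per gene and all without the 6 genes of the duplication. With the 8350 highest-scoring peaks of each list, members with a promoter peak numbered 10 and 3 in SCD and HFD BAT H3K9me2, 10 and 3 in BAT H3K9me3, 5 and 16 in H3K9me2 of WAT, and 13 in its HFD H3K9me3 list. The member shares, in this order, were 14.9% and 4.48%, 14.9% and 4.48%, 7.46% and 23.9%, and 19.4%. Those of all genes were 18.0% and 11.8%, 23.1% and 24.1%, 19.9% and 21.9%, and 12.1%. In SCD only there were then 7 in BAT H3K9me2, 7 in BAT H3K9me3 and 2 in WAT H3K9me2, and, in HFD only, 0 in BAT H3K9me2, 0 in BAT H3K9me3 and 10 in WAT H3K9me3. These SCD-only shares were 10.4%, 10.4% and 2.99%, against 12.0%, 5.39% and 7.43% of all genes. The HFD-only shares were 0%, 0% and 14.9%, against 5.73%, 6.39% and 8.97%. Scores of 80 or more left 32 and 18 members in SCD and HFD BAT H3K9me2, 17 and 16 in H3K9me2 of WAT, 0 and 19 in its H3K9me3, 14 in SCD only and 0 in HFD only in BAT H3K9me2, and 0 in SCD only in WAT H3K9me3. As member shares these were 47.8% and 26.9%, 25.4% and 23.9%, 0% and 28.4%, 20.9% and 0%, and 0%. Those of all genes were 29.1% and 26.6%, 29.5% and 26.7%, 2.60% and 19.2%, 13.3% and 10.8%, and 0.903%. Without a lowest score, SCD WAT H3K9me3 had 22 members, 10 of them in SCD only, and 6 were in HFD only in WAT H3K9me2. These were 32.8%, 14.9% and 8.96% of the members, against 18.9%, 6.89% and 2.63% of all genes. With promoters of 1 kb on either side, 4 members (5.97%) were in HFD only in BAT H3K9me2, against 12.1% of all genes. The member share there in HFD, 38.8%, was below the 40.1% of all genes. Where peaks had to overlap to be shared, 7 were in HFD only in BAT H3K9me2, and 17 in SCD only and 17 in HFD only in WAT H3K9me2. The overlap counts were not made for all genes. Fewer peaks enter under the first 2 alternatives and more under the third. Other causes were not tested. No paired analysis was possible because each diet, tissue and mark was 1 library. Unknown depth limits every count between lists.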
